A study of Danio rerio with 12 samples.

Results

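Proteasome genes were followed in the heads of 5 dpf zebrafish larvae that lack *rb1*, the gene for the retinoblastoma protein. They were taken as every row of the deposited count table whose gene name begins with psma, psmb, psmc, psmd, psme, psmf or psmg and a number, with at least 10 counts over the 12 lane columns. The rule found 53 genes among the 32266 genes in the table, and it used no expression difference. Of these 53 genes, 51 passed the filter on low counts and were tested, and the 2 left out were *psmb9a* and *psmb11b*. The marker named for this group, *psma1*, was read in all 6 libraries. The wild-type libraries came from +/+ larvae and the mutant libraries from *rb1-/-* siblings homozygous for the *rb1Δ7* allele, a 7 bp frameshift in exon 2. All larvae were of the WIK background and came from an incross of heterozygous *rb1Δ7/+* adults, so a single mutant line stands for the genotype. Each library held RNA of 5 dissected heads, with 3 such pools of each genotype, and each was sequenced in 2 lanes.

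The proteasome is the protease that degrades proteins tagged with ubiquitin. Its core particle is a barrel of alpha rings, which control entry, around beta rings, which hold the active sites. A regulatory particle caps the barrel, with a base of ATPases that unfold the substrate and a lid that removes the ubiquitin chain. Immune cells exchange the active subunits for inducible ones, which make the immunoproteasome and change the peptides shown on MHC class I. The transcription factor Nfe2l1 is known to raise proteasome genes together when the protease is short.

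The libraries held between 41065256 and 47700950 counts on genes, and both lanes of a library agreed within sampling noise and were summed, as 1 sample. The p-values measure the spread between pools. *rb1* itself stood at 11.6, 9.84 and 9.52 CPM (counts scaled to library size) in the mutant pools and at 26.8, 20.8 and 18.4 CPM in the wild-type pools. Its log2 fold change was −1.09 ± 0.161 (SE, edgeR adjusted p = 0.0121), and no mutant pool reached a wild-type pool. All 10 head tissue markers were detected, and the rod opsin gene *rho* was lower in the mutant heads, with a log2 fold change of −0.69 (edgeR adjusted p = 0.0161). All 14 proliferation markers were higher in each mutant pool than in each wild-type pool, a pattern that 16.1% of all genes tested showed. Their summed level was 1461 to 1633 CPM in the mutant pools and 577 to 867 CPM in the wild-type pools. In pooled heads, fewer cells of a type and less RNA per cell cannot be told apart.

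The proteasome genes stood higher in mutant heads almost throughout the complex, by a small amount. They took 0.285%, 0.270% and 0.306% of all counts in mutant pools 1, 2 and 3, against 0.227%, 0.203% and 0.218% in wild-type pools 1, 2 and 3. The lowest mutant pool lay above the highest wild-type pool. The median log2 fold change of the 51 genes tested was 0.40, whereas the median of all 22753 genes tested was −0.01. A log2 fold change above 0 was seen for 48 proteasome genes (94.1%) and for 48.2% of all genes, and one below 0 for 3 (5.88%) and for 51.8%. All 3 mutant pools lay above all 3 wild-type pools for 39 proteasome genes (76.5%), a pattern that 16.1% of all genes showed. The opposite pattern was seen for none of them and for 13.2% of all genes.

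At the threshold of the study, an adjusted p of at most 0.01 with a change of at least 1.5-fold, edgeR called 0 proteasome genes, while 0.897% of all genes were called as higher and 0.286% as lower. DESeq2 called 3 at that threshold, *psmd11b*, *psma6l* and *psmc3ip*, all of them higher. It also called more of all genes there than edgeR did, so the edgeR shares are no background for this count. The DESeq2 counts over all genes are given below. At an adjusted p of at most 0.05 with no minimum fold, edgeR called 8 proteasome genes as higher (15.7%), against 3.82% of all genes. It called 0 as lower, against 2.17% of all genes. At an unadjusted p of at most 0.05, 40 were higher (78.4%, against 12.8% of all genes) and 0 were lower (against 10.5%). DESeq2 called 28 proteasome genes as higher at an adjusted p of at most 0.05, where it called 5.04% of all genes as higher. That share is over 28585 genes, a larger set with low-count genes that edgeR left out, so the 2 backgrounds are not alike. The count of 8 depended on the libraries. It was 0 without mutant pool 1, wild-type pool 2 or wild-type pool 3, 4 without mutant pool 3 or wild-type pool 1, and 14 without mutant pool 2. In the same fits edgeR called 0.797%, 0.674% and 1.35% of all genes as higher where the count was 0, 3.66% and 2.91% where it was 4, and 3.55% where it was 14. The median log2 fold change stayed between 0.31 and 0.47 over these 6 fits.

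**Figure D1:**
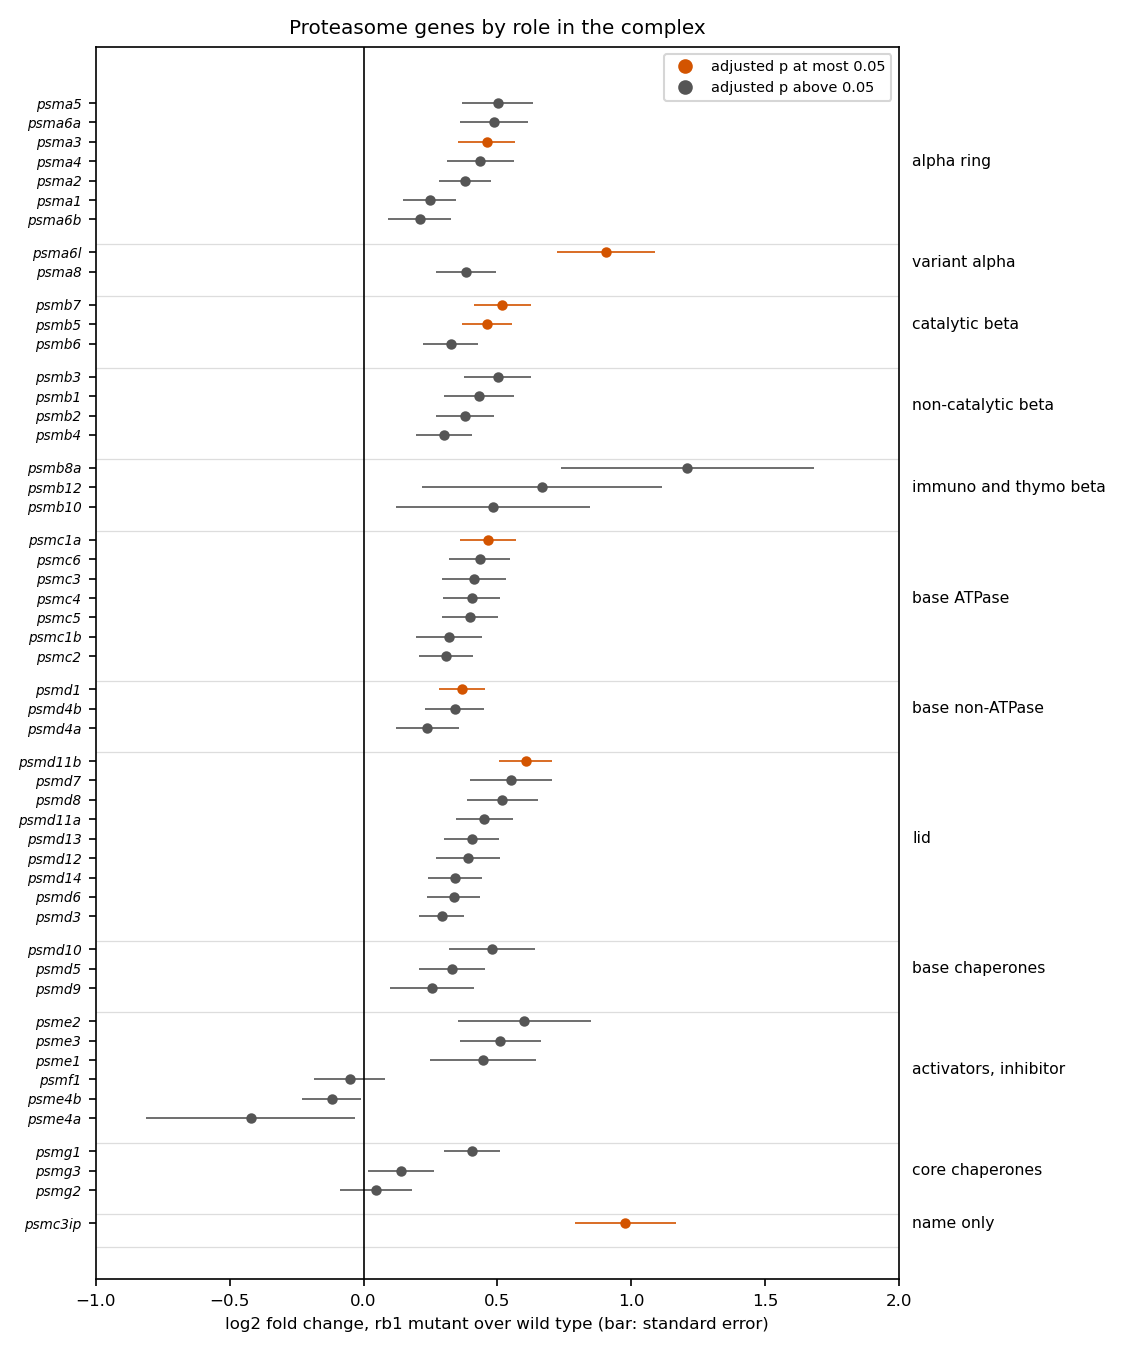
Each point is the log2 fold change of 1 tested proteasome gene, *rb1* mutant over wild type, with its standard error as a bar, grouped by role in the complex. The 48 genes right of 0 include every ring, base and lid subunit gene that was within the name rule and tested. The 3 left of 0 are *psme4a*, *psme4b* and *psmf1*.

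The 8 genes called came from the alpha and beta rings, the base and the lid, with 1 that is no subunit. The largest changes among the subunits were in the lid and in a variant alpha gene. *psmd11b* (ENSDARG00000005134), a lid subunit that clamps the base onto the core particle, stood at 42.6, 37.1 and 40.0 CPM in the mutant pools and at 27.9, 23.9 and 26.8 CPM in the wild-type pools. Every mutant pool was well above every wild-type pool, and the log2 fold change was 0.61 ± 0.0995 (SE, edgeR adjusted p = 0.0170). *psma6l* (ENSDARG00000043899), a gene named for its likeness to the alpha subunit *psma6*, was weakly expressed, at 2.53, 3.05 and 3.63 CPM in the mutant and 1.73, 1.501 and 1.67 CPM in the wild type. Its groups did not overlap either, and its log2 fold change was 0.91 ± 0.182 (SE, edgeR adjusted p = 0.0318). The other called subunits were more abundant and changed by less than *psmd11b*.

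In the core particle, all 7 genes of the alpha rings had a log2 fold change above 0, from 0.21 for *psma6b* to 0.50 for *psma5*. Of the 7, 6 were higher without overlap, against 16.1% of all genes. *psma3* (ENSDARG00000086618) was the alpha gene that passed the test, at 84.3, 77.3 and 91.9 CPM in the mutant pools against 67.7, 59.1 and 57.4 CPM in the wild type. Its mutant pools were all above the wild-type pools, and the log2 fold change was 0.46 ± 0.106 (SE, edgeR adjusted p = 0.0484). *psma5*, with the largest change, stood at 54.8, 49.1 and 65.8 CPM against 44.5, 36.1 and 39.2 CPM. Its adjusted p was 0.0704 with edgeR and 0.0465 with the pool number as a block. *psma1* was at 83.3, 77.6 and 94.6 CPM against 75.0, 69.7 and 70.7 CPM, groups that were close but did not overlap (log2 fold change 0.25 ± 0.101 SE, edgeR adjusted p = 0.192). *psma6b* was the only alpha ring gene whose groups overlapped (edgeR adjusted p = 0.334). The row named *psma8*, which the RefSeq table also lists under the older name psma7, had a log2 fold change of 0.38 (edgeR adjusted p = 0.0901).

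In the beta rings, the median log2 fold change was 0.46 for the 3 genes with an active site and 0.40 for the 4 without. *psmb7* (ENSDARG00000037962), which carries the trypsin-like activity, stood at 92.3, 83.8 and 100.3 CPM in the mutant pools and at 70.5, 60.6 and 61.8 CPM in the wild type. The groups were clearly apart, with a log2 fold change of 0.52 ± 0.106 (SE, edgeR adjusted p = 0.0336). *psmb5* (ENSDARG00000075445), which carries the chymotrypsin-like activity, stood at 68.7, 64.4 and 72.1 CPM against 54.1, 46.8 and 48.1 CPM. Its change was 0.46 ± 0.0946 on the log2 scale (SE, edgeR adjusted p = 0.0336), again with no overlap. *psmb6*, the caspase-like subunit, was at 53.5, 48.1 and 59.6 CPM against 45.7, 41.3 and 41.6 CPM and did not pass the test (log2 fold change 0.33 ± 0.104 SE, edgeR adjusted p = 0.112). The beta genes without an active site had log2 fold changes from 0.30 for *psmb4* to 0.50 for *psmb3*. All 4 were higher without overlap, against 16.1% of all genes. None of them passed the edgeR test, where *psmb3* had an adjusted p of 0.0613, and with the pool number as a block *psmb3* passed it (adjusted p = 0.0349).

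The base and the lid gave the same picture. All 7 ATPase genes had higher values in each mutant pool than in each wild-type pool, a pattern that 16.1% of all genes showed. Their log2 fold changes lay within a narrow range, from 0.31 for *psmc2* (edgeR adjusted p = 0.12) to 0.47 for *psmc1a*. *psmc1a* (ENSDARG00000030537) passed the test, at 88.2, 80.7 and 96.7 CPM in the mutant against 69.7, 61.7 and 60.9 CPM in the wild type (log2 fold change 0.47 ± 0.104 SE, edgeR adjusted p = 0.0441). The mutant pools of *psmc1a* were all above the wild-type pools. With the pool number as a block, *psmc6* also passed (adjusted p = 0.0422). *psmd1* (ENSDARG00000003189), the large scaffold of the base, was at 169.8, 169.6 and 159.5 CPM against 133.9, 124.8 and 128.1 CPM. It had the smallest standard error of the 8 genes called (log2 fold change 0.37 ± 0.0852 SE, edgeR adjusted p = 0.0488), and it no longer passed with the block (adjusted p = 0.0559). The ubiquitin receptor genes *psmd4a* and *psmd4b* had log2 fold changes of 0.24 and 0.34, neither of which passed (edgeR adjusted p = 0.276 and 0.118).

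All 9 lid genes were also higher in each mutant pool than in each wild-type pool, against 16.1% of all genes. Their log2 fold changes ran from 0.29 for *psmd3* (edgeR adjusted p = 0.0847) to 0.61 for *psmd11b*, which alone passed the test. *psmd14*, the deubiquitinase of the lid, and *psmd7*, its partner, had log2 fold changes of 0.34 and 0.55 (edgeR adjusted p = 0.0911 and 0.0781). *psmd8* and *psmd11a* passed with the pool number as a block (adjusted p = 0.0479 and 0.0308) and not without it (0.0645 and 0.0511). Taking the alpha and beta rings, the base and the lid as the constitutive particle gave 34 genes, with *psma8* counted in and *psma6l* left out. All 34 had a log2 fold change above 0, with a range of 0.21 to 0.61 and a median of 0.40. Their summed level was 2484, 2285 and 2760 CPM in mutant pools 1 to 3 and 2048, 1811 and 1865 CPM in wild-type pools 1 to 3.

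The subunit genes went up and down together from pool to pool within a genotype as well. Relative to the wild-type mean, the median of the 34 genes was 0.379, 0.255 and 0.547 on the log2 scale in mutant pools 1 to 3, and 0.104, −0.0689 and −0.0347 in wild-type pools 1 to 3. Mutant pool 3 was the highest of the 6 libraries for 31 of the 34 genes, and mutant pool 2 was the lowest mutant library for 32. Wild-type pool 1 was the highest wild-type library for 32 genes, and wild-type pool 2 the lowest of all for 27. The gap between mutant pool 2 and wild-type pool 1 was therefore smaller than the gap between mutant pools 2 and 3. This order of the mutant pools was not particular to the subunits. The COP9 signalosome and eIF3 genes, compared below, summed to 301, 285 and 335 CPM and to 3696, 3594 and 4552 CPM in mutant pools 1 to 3. In wild-type pools 1 to 3 they summed to 275, 263 and 264 CPM and to 3798, 3955 and 3974 CPM. The ubiquitin and p97 lists below had the same mutant order, and the MHC class I and thymus lists did not. The proliferation markers had another order among the mutant pools, with the highest sum in mutant pool 1 at 1633 CPM, then pool 3 at 1570 CPM and pool 2 at 1461 CPM. Among the wild-type pools their sum was 867, 673 and 577 CPM in pools 1 to 3, so pool 1 was the highest for both groups of genes. Their part in the proteasome values was not tested.

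**Figure D2:**
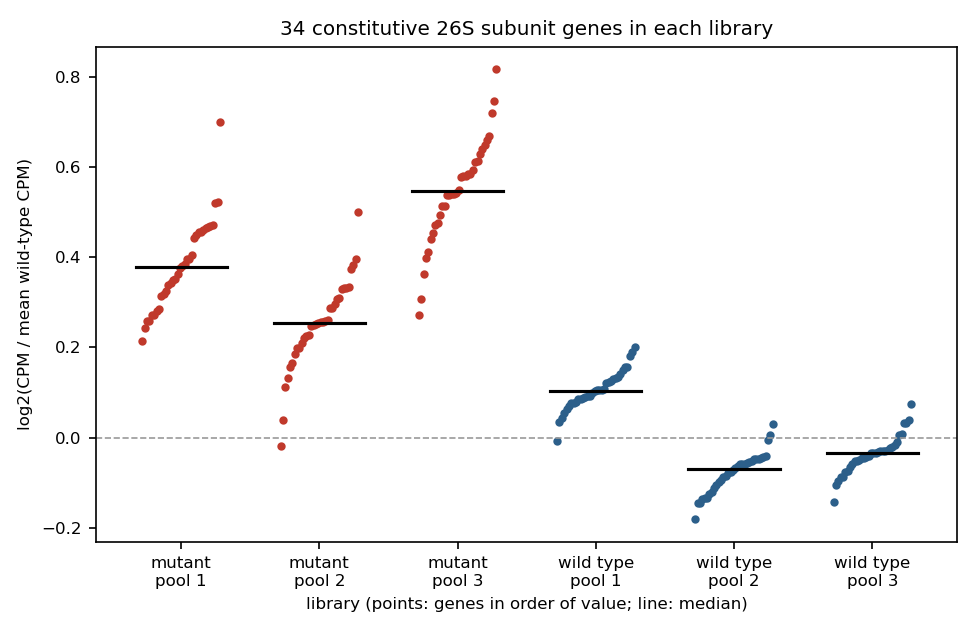
Each point is 1 of the 34 constitutive subunit genes in 1 library, as log2 of its CPM over its wild-type mean, in order of value, and the line is the median. The medians of the mutant libraries, 0.255 to 0.547, are all above those of the wild-type libraries, −0.0689 to 0.104, and mutant pool 3 is the highest.

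Levels can be compared between genes only per length, for which the FPKM values of the authors were used. Most subunits are present in equal number in the particle, but mRNA levels were not equal between their genes. Copies of a subunit gene were not summed, so these are levels per gene and not per subunit. In wild-type heads the constitutive subunit genes ran from 7.83 ± 0.298 FPKM (SD, n = 3) for *psmd4a* to 76.4 ± 4.73 FPKM for *psmb4*, with a median of 37.5 FPKM and a ratio of 9.77 between the ends. In mutant heads the same genes marked the ends, at 9.60 ± 0.892 and 97.8 ± 6.18 FPKM (SD, n = 3), with a median of 51.9 FPKM. The gene at the low end, *psmd4a*, is 1 of 2 copies. The other copy, *psmd4b*, stood at 25.1 ± 2.08 FPKM (SD, n = 3) in wild-type heads. The order of the genes was nearly the same in both genotypes (across 34 genes that share libraries, Spearman's rho = 0.991 and Pearson's r = 0.994 of log2 FPKM). The size of the change had little relation to the wild-type level (Pearson's r = −0.215, Spearman's rho = −0.182) or to exonic length (r = 0.199, rho = 0.134) across these 34 genes, which are not independent replicates. Assembly chaperones, activators and the variant gene *psma6l* stood below most subunits. The 5 beta genes of the immunoproteasome and of a form of the thymus within the name rule were lowest.

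**Figure D3:**
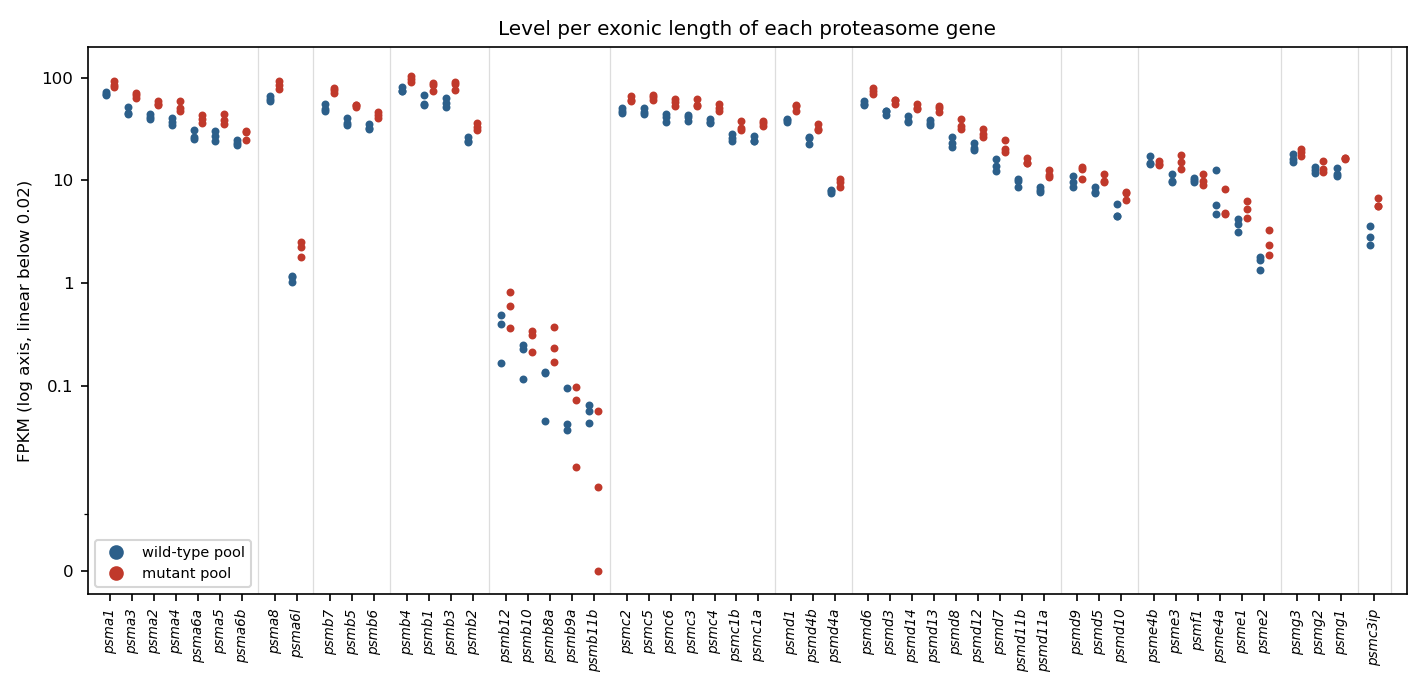
Each point is the FPKM of 1 proteasome gene in 1 library (blue, wild type; red, mutant) on a log axis that turns linear below 0.02, with genes grouped by role. Constitutive subunit genes, with copies shown apart, lie between 7.83 and 97.8 FPKM on average. The 5 beta genes of the immunoproteasome and the thymus form within the name rule lie below 1 FPKM in every library.

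The 5 beta genes of the immunoproteasome and the thymus form within the name rule had few reads in these heads. In mammals *psmb8*, *psmb9* and *psmb10* encode the subunits that replace *psmb5*, *psmb6* and *psmb7* after interferon, and *psmb11* belongs to a form of the thymus. *psmb8a* had 13, 18 and 27 counts in mutant pools 1 to 3 and 10, 3 and 10 counts in wild-type pools 1 to 3. In CPM its mutant pools were all above the wild-type pools, but the log2 fold change of 1.21 ± 0.472 (SE) did not pass the test (edgeR adjusted p = 0.175). *psmb12* had 25, 15 and 32 counts against 20, 6 and 16, and the row named *psmb10* had 24, 15 and 21 counts against 8, 14 and 17, with overlapping groups for both (edgeR adjusted p = 0.428 and 0.479). *psmb9a* had 4, 1 and 5 counts against 2, 2 and 5. *psmb11b* was at 0, 4 and 1 counts against 4, 4 and 3, too few for a test. In the gene order of the newer RefSeq assembly (GRCz12tu), the rows *psmb10* (there named *psmb13a*), *psmb8a*, *psmb12* and *psmb9a* stand next to each other, between *mhc1uba* and *tap2a* of MHC class I presentation.

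The balance between immunoproteasome and constitutive active subunits was compared within libraries. In wild-type heads *psmb8a* stood at 0.104 ± 0.0513 FPKM against 37.2 ± 2.89 FPKM (SD, n = 3) for *psmb5*. The log2 ratio of *psmb8a* to *psmb5* was −8.33, −7.79 and −7.20 in the mutant pools and −8.26, −9.59 and −8.07 in the wild-type pools, and the groups overlapped. The mean difference was 0.87 (two-sided exact permutation p = 0.3, adjusted p = 0.6 over 4 ratios). The ratios of *psmb9a* to *psmb6* and of *psmb10* to *psmb7* differed by −0.45 and 0.01 on the log2 scale (exact permutation p = 0.7 and 1, adjusted p = 0.933 and 1). With 1 library left out the 3 differences ran from 0.39 to 1.16, from −0.87 to 0.22 and from −0.41 to 0.24, so the direction turned for the latter 2. With 3 pools against 3 the smallest p is 0.1, so this comparison could not pass 0.05. A further row, written PSMB10 in capitals and therefore outside the rule, carries the name of the inducible partner of *psmb7* in the reference tables too. It was better read, at 9.02, 7.72 and 9.59 CPM in the mutant against 7.18, 5.83 and 6.58 CPM in the wild type, with no overlap (log2 fold change 0.43 ± 0.137 SE, edgeR adjusted p = 0.114). Its log2 ratio to *psmb7* was −4.17 ± 0.0451 in the mutant and −4.08 ± 0.0737 in the wild type (SD, n = 3), a difference of −0.09 (exact permutation p = 0.2, adjusted p = 0.6). This last ratio was added after the gene names had been seen.

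The genes that surround the immunoproteasome had log2 fold changes in both directions, none past the edgeR test. Of 27 genes tested of MHC class I loading and its control, 16 had a log2 fold change above 0 and 11 below, with a median of 0.18. Without overlap 8 were higher and 3 lower, against 16.1% and 13.2% of all genes. The 8 were *calr3b*, *calr3a*, *calr*, *canx*, *pdia3*, *irf1a*, *irf8* and *tap1*, and the 3 were *stat1a*, *b2ml* and *tapbpl*. At an adjusted p of 0.05 edgeR called 0, against 3.82% of all genes as higher and 2.17% as lower. At an unadjusted p of 0.05, 8 were higher and 3 lower, against 12.8% and 10.5% of all genes. The largest change was that of *calr3b*, a calreticulin gene, which passed with the pool number as a block (log2 fold change 0.94, edgeR adjusted p = 0.0827, 0.0191 with the block). *tapbpl*, a relative of the peptide editor tapasin, had a log2 fold change of −0.49 and passed only with the block (adjusted p = 0.0883 without it, 0.0375 with it). Of 19 leukocyte and microglia markers, edgeR called 1 as higher (5.26%, against 3.82% of all genes) and 1 as lower (against 2.17%) at an adjusted p of 0.05. These were *havcr1* and *c1qb* (log2 fold change 0.71 and −1.59, edgeR adjusted p = 0.0206 and 0.0374). Without overlap 4 were higher and 2 lower, against 16.1% and 13.2% of all genes. The 19 markers summed to 507 to 775 CPM in the mutant and 580 to 710 CPM in the wild type. Most of that sum was *apoeb*, and without it the other 18 genes summed to 135, 127 and 160 CPM in the mutant pools and to 133, 108 and 116 CPM in the wild-type pools, a sum formed after the values were seen. The microglial gene *p2ry12* did not overlap between the genotypes and did not pass (log2 fold change 0.75, edgeR adjusted p = 0.0728). With the block *mpeg1.1* and *mpeg1.2* passed as well (adjusted p = 0.0224 and 0.0212), and *c1qb* did not (0.0526). The 13 thymus and T cell markers tested summed to 264 to 377 CPM in the mutant and 308 to 366 CPM in the wild type. Most of that sum was *tox*, at 198, 233 and 157 CPM in the mutant pools against 181, 216 and 214 CPM in the wild-type pools. Much of the rest was *bcl11ba*, at 93, 105 and 61 CPM against 77, 95 and 104 CPM. Of the 13 markers edgeR called 0 at an adjusted p of 0.05, against 3.82% of all genes as higher and 2.17% as lower. At an unadjusted p of 0.05, 1 was higher and 1 lower, against 12.8% and 10.5% of all genes. The largest log2 fold changes in size among them were those of *ikzf1* (0.58, edgeR adjusted p = 0.106) and *rag1* (−0.51, edgeR adjusted p = 0.145). No marker read for these lists was at 0 in every library. The T cell markers *cd8b*, *ptcra*, *trac* and *bcl11bb* were planned but were not among the genes read. *cd8a*, with 1 to 7 counts per library, was not tested.

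The factors that open or close the particle had log2 fold changes on both sides of 0. Of the 6 activator and inhibitor genes, 3 had a log2 fold change above 0 and 3 below, and none passed the test. The 3 genes below 0 all overlapped between the genotypes. *psme3*, the nuclear activator of the core particle, stood at 32.3, 27.2 and 40.0 CPM in the mutant and at 26.1, 21.8 and 22.0 CPM in the wild type. Its groups did not overlap (log2 fold change 0.51 ± 0.153 SE, edgeR adjusted p = 0.0947). *psme1* and *psme2*, which form the interferon-inducible activator, had log2 fold changes of 0.45 and 0.60 with overlapping groups (edgeR adjusted p = 0.227 and 0.198). *psme4a*, a gene for the large nuclear activator PA200, stood at 32.4, 32.1 and 58.3 CPM against 33.7, 41.0 and 89.8 CPM, so pool 3 was the highest of both genotypes. Its log2 fold change was −0.42 ± 0.391 (SE, edgeR adjusted p = 0.572) and turned to 0.13 without wild-type pool 3 (adjusted p = 0.856). Its copy *psme4b* was at 102.8, 101.6 and 117.2 CPM against 108.3, 111.3 and 129.8 CPM, and *psmf1*, named as an inhibitor, had a log2 fold change of −0.05 (edgeR adjusted p = 0.566 and 0.861).

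**Figure D4:**
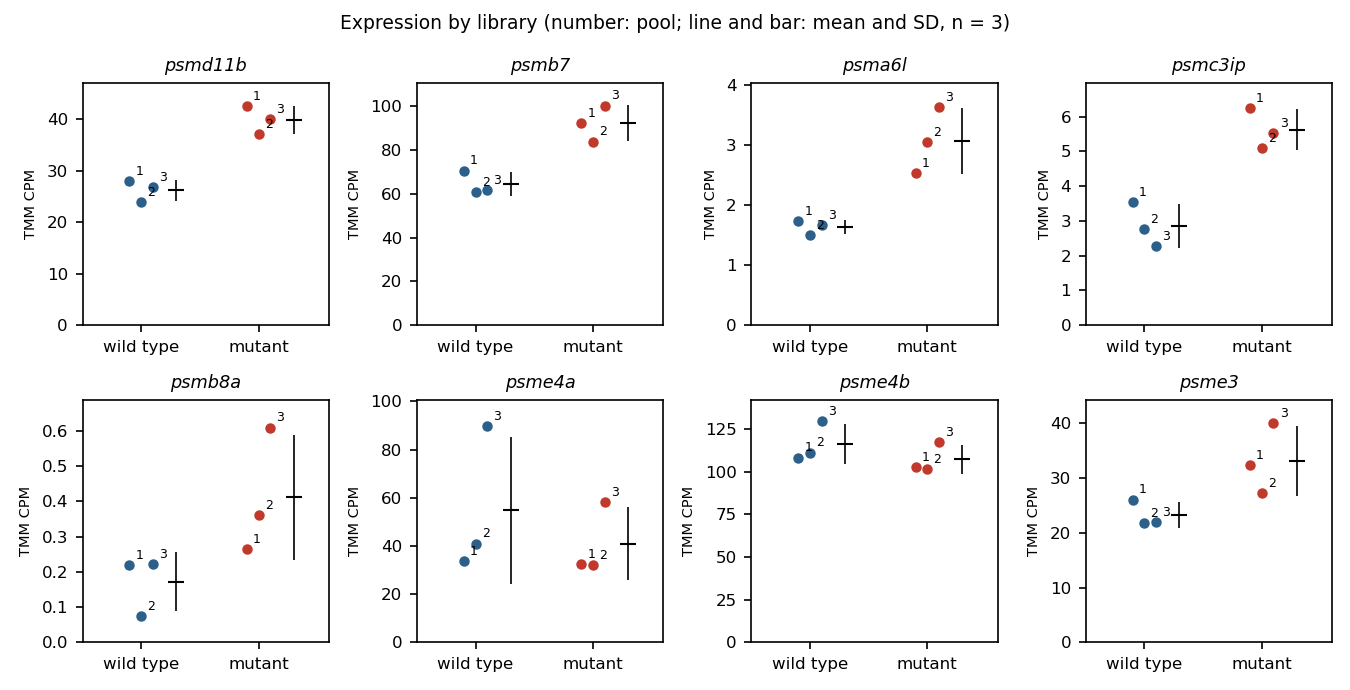
CPM of 8 proteasome genes in each library, with the pool number at each point and the mean and SD of 3 pools as line and bar. The groups are apart for *psmd11b*, *psmb7*, *psma6l*, *psmc3ip*, *psmb8a* and *psme3*, and they overlap for *psme4a* and *psme4b*, where pool 3 is the highest of both genotypes.

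The assembly chaperone genes within the name rule all had log2 fold changes above 0, and none passed the test. A difference between those of the base and those of the core was not tested. The base chaperone genes, *psmd5*, *psmd9* and *psmd10*, had log2 fold changes of 0.33, 0.26 and 0.48 (edgeR adjusted p = 0.157, 0.376 and 0.124), and *psmd9* overlapped between the genotypes. *psmd10* encodes gankyrin, which in mammals is also known to bind the retinoblastoma protein. It stood at 9.47, 7.82 and 10.2 CPM in the mutant and at 7.77, 6.01 and 5.91 CPM in the wild type, groups that nearly touched. Of the chaperones of the core, *psmg1* was at 21.6, 21.1 and 22.0 CPM against 18.1, 15.8 and 14.8 CPM (log2 fold change 0.41 ± 0.104 SE, edgeR adjusted p = 0.0652), with no overlap. Its partner *psmg2* had a log2 fold change of 0.05 and *psmg3* of 0.14 (edgeR adjusted p = 0.883 and 0.557), and both overlapped between the genotypes.

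One gene with a proteasome name is not a part of the particle. *psmc3ip* (ENSDARG00000037892) was named for binding *psmc3* and encodes the Hop2 protein, which works in meiotic recombination. It stood at 6.25, 5.09 and 5.53 CPM in the mutant pools and at 3.54, 2.75 and 2.27 CPM in the wild-type pools. The mutant pools were all higher, and its log2 fold change of 0.98 ± 0.189 (SE, edgeR adjusted p = 0.0281) was the largest of the 8 genes called.

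Several subunits have a pair of copies in zebrafish, which reads of 50 bp can tell apart only where the copies differ, since the authors kept uniquely aligned reads. Whether the copies changed alike was asked from their log2 FPKM ratio within libraries, for 5 pairs. The ratio of *psma6a* to *psma6b* was 0.44, 0.56 and 0.53 in the mutant pools and 0.33, 0.16 and 0.17 in the wild-type pools. The groups did not overlap, and the difference of 0.28 had the smallest p that 3 against 3 pools allow (two-sided exact permutation p = 0.1, adjusted p = 0.25 over 5 pairs), with the mutant pool higher in 3 of 3 same-numbered pairs. The ratio of *psmc1a* to *psmc1b* was 0.16, 0.16 and 0.01 against −0.05, 0.00 and −0.09, a difference of 0.15 that also had an exact permutation p of 0.1 (adjusted p = 0.25). The ratios of *psmd11a* to *psmd11b*, *psmd4a* to *psmd4b* and *psme4a* to *psme4b* differed by −0.16, −0.11 and −0.23 (exact permutation p = 0.2, 0.5 and 0.7, adjusted p = 0.333, 0.625 and 0.7), with overlapping groups, and that of *psme4a* to *psme4b* turned to 0.12 without wild-type pool 3. None of the 5 pairs passed 0.05, which this number of pools could not reach.

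Some proteasome parts carry names outside the rule. The base subunit Psmd2 had no row of that name, but the gene name table gives this name to ENSDARG00000099653 and ENSDARG00000103190. The former stood at 91.5, 90.8 and 94.6 CPM in the mutant and 73.6, 62.3 and 71.5 CPM in the wild type, the latter at 66.0, 65.6 and 69.1 CPM against 52.3, 45.2 and 51.7 CPM. Neither overlapped between the genotypes, and both passed (log2 fold change 0.42 and 0.43, edgeR adjusted p = 0.0451 and 0.0371). Whether they are copies or pieces of 1 gene was not tested. PSMG4, the partner of *psmg3*, and *shfm1*, the small lid subunit Sem1, had log2 fold changes of 0.45 and 0.27 (edgeR adjusted p = 0.0905 and 0.115). The ubiquitin receptor gene *adrm1* had 0.15 (edgeR adjusted p = 0.344).

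The 19 genes for other proteasome parts and partners, which include *adrm1* and *shfm1*, had a median log2 fold change of 0.21. At an adjusted p of 0.05 edgeR called 3 of them as higher (15.8%, against 3.82% of all genes) and 1 as lower (against 2.17% of all genes). *akirin2*, which in human cells carries proteasomes into the nucleus, stood at 65.0, 65.3 and 67.4 CPM in the mutant and at 47.2, 48.3 and 48.1 CPM in the wild type. Its groups were far apart (log2 fold change 0.46 ± 0.0759 SE, edgeR adjusted p = 0.0171). *usp14*, a deubiquitinase on the base, also rose (log2 fold change 0.49, edgeR adjusted p = 0.0414), and so did *ubqln4*, a shuttle for ubiquitin-tagged proteins (0.41, edgeR adjusted p = 0.0386, 0.0516 with the block). *txnl1*, a thioredoxin of the regulatory particle, passed only with the block (log2 fold change 0.38, adjusted p = 0.0952 without it and 0.0408 with it). *zfand5a*, a zinc finger gene whose mammalian relative binds the proteasome, fell from 102, 124 and 84.3 CPM to 57.1, 63.9 and 53.7 CPM (log2 fold change −0.83, edgeR adjusted p = 0.0229).

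The regulators of proteasome genes differed in direction. Of 19 genes tested, edgeR called 0 as higher and 2 as lower at an adjusted p of 0.05, against 3.82% and 2.17% of all genes. At an unadjusted p of 0.05, 5 were higher and 4 lower, against 12.8% and 10.5% of all genes. The median log2 fold change was 0.12. *nfe2l1a*, a copy of the gene for the factor that restores proteasome levels, stood at 7.70, 8.08 and 11.5 CPM in the mutant pools against 15.9, 14.8 and 18.6 CPM in the wild type. Its mutant pools were all below the wild-type pools (log2 fold change −0.86 ± 0.176 SE, edgeR adjusted p = 0.0338). *mafk*, a small Maf gene for a DNA-binding partner of such factors, was at 3.18, 3.31 and 3.72 CPM against 5.97, 6.98 and 6.22 CPM (log2 fold change −0.91 ± 0.134 SE, edgeR adjusted p = 0.0120). The other copy, *nfe2l1b*, was higher without overlap at 33.2, 26.2 and 27.7 CPM against 25.5, 20.8 and 22.2 CPM and did not pass (log2 fold change 0.34, edgeR adjusted p = 0.15). *nfe2l3* and *nfya* had log2 fold changes of 0.40 and 0.37 and passed only with the block (edgeR adjusted p = 0.128 and 0.0647 without it, 0.0386 and 0.0426 with it).

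The COP9 signalosome and the translation factor eIF3 are built on the same plan as the lid and served for comparison. The 7 COP9 genes had log2 fold changes between 0.11 and 0.32, with a median of 0.20, and the largest was that of *cops5* (edgeR adjusted p = 0.154). Of the 7 genes, 4 were higher without overlap, against 16.1% of all genes. None was called by edgeR at an adjusted p of 0.05, where 3.82% of all genes were called as higher. At an unadjusted p of 0.05, 3 were higher, against 12.8% of all genes. The 17 eIF3 genes had a median log2 fold change of 0.05, with 2 higher without overlap, against 16.1% of all genes. At an adjusted p of 0.05 edgeR called 1 as higher (5.88%, against 3.82% of all genes), *eif3ja* (log2 fold change 0.43, edgeR adjusted p = 0.0370). By the same description the lid had a median log2 fold change of 0.40 and 9 of 9 genes higher without overlap, against 16.1% of all genes. The difference between the complexes was not tested.

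**Figure D5:**
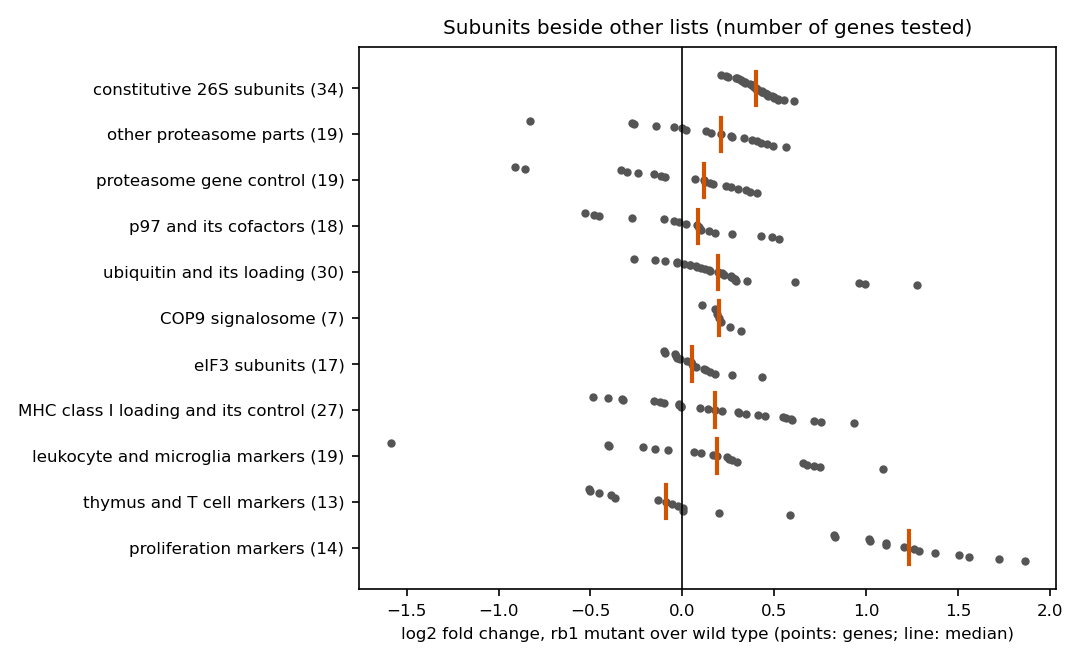
Each point is the log2 fold change of 1 gene, *rb1* mutant over wild type, in the constitutive subunits and 10 other lists, and the line is the median of the list. The constitutive subunits have a median of 0.40 and no gene below 0.21, the proliferation markers have a median of 1.23, and most other lists lie on both sides of 0.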

How the data were processed

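RNA-Seq was analysed for 6 libraries in 12 lane columns. The authors aligned 50 bp single-end reads to GRCz10 with GSNAP 20150723 and counted uniquely aligned reads per gene with HTSeq 0.9.1, and the deposited counts are raw values per lane. The strand setting is not given in the sources used here, and the kit does not mark strand, so overlapping and antisense genes cannot be told apart. The deposited FPKM are the authors' values, counts scaled by lane total and by the other deposited column, exonic length, an equation that held in each of the 12 columns. The authors' own DESeq2 table of fold changes and p-values was not used.

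Lanes were summed. The gene test was edgeR 4.0.16 under R 4.3.3 (quasi-likelihood test, TMM, default low-count filter, genotype only, Benjamini-Hochberg adjustment over 22753 genes), and the standard error is the log2 fold change divided by the square root of F. CPM are TMM-scaled. Ratios were compared by exact permutation in scipy 1.17.1. The fits were tested on simulated data.

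Named in full were the members called at an adjusted p of 0.05, the largest and smallest change in each role, the members in ratios, *psma1* and *rb1*. Of the other lists, the genes called were named, otherwise the one with the largest change, except that the proliferation markers were given only as a list. Further genes were named after their values were seen. The members and lists were chosen with earlier results of these data known. All 53 members had a symbol in the reference name table, 41 with the same letters.

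The labels give both genotypes the pool numbers 1 to 3, although same-numbered pools are different animals. Deviations of same-numbered pools from their group means correlated at 0.411, 0.475 and 0.253 across genes, so fits that add this number as a replicate block are printed where they change a call. Other alternatives were DESeq2 1.42.0, RLE and upper-quartile factors, no filter, each lane alone and each library left out.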

Additional observations from a re-analysis of the deposited data

How the results depend on the processing

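The median log2 fold change of the proteasome genes was 0.40 and stayed between 0.31 and 0.47 under all 13 alternatives, while the median of all genes stayed between −0.02 and 0.02. Counts of calls moved more. At the study's threshold DESeq2 called 649 genes higher and 458 lower among 28585 genes tested. With edgeR these counts were 204 and 65 among 22753 genes tested. DESeq2 called 3 proteasome genes against 0 with edgeR, and 28 proteasome genes against 8 had an adjusted p within 0.05. Leaving out 1 library at a time gave 1 to 179 genes called higher, 0 to 85 called lower, 0 to 14 proteasome genes with an adjusted p within 0.05, and 0 to 3 proteasome genes lower without overlap, with the 3 found without mutant pool 3. Fewer libraries were fitted there, so groups avoid overlap more easily. Without mutant pool 3, 22.4% of all genes were higher without overlap, against 16.1% with all libraries. The share of all genes lower without overlap was 13.2% with all libraries. It is not given here for these fits, so the 3 are not read as a result. When pool numbers entered as a replicate block, 12 proteasome genes had an adjusted p of at most 0.05, 7 of them among the 8 without it, as 5.10% of all genes were then called higher against 3.82%, and the block changed no call of the proteasome genes beyond those given above. In the paired form the ratio of *psma6a* to *psma6b* differed by 0.28 (exact sign-flip p = 0.25, the smallest for 3 pairs). The log2 fold change turned direction for *psmf1* (0.032 without mutant pool 1, range −0.19 to 0.032 with 1 library left out), *psme4a* (0.13 without wild-type pool 3, range −0.77 to 0.13) and *psmg2* (−0.089 without mutant pool 3 and −0.0020 without wild-type pool 1, range −0.089 to 0.14). The cause was not tested. Over the alternatives, the adjusted p of *psmd11b* ranged from 8.23e-05 to 0.0986 and that of *psmd1* from 0.00668 to 0.223. The ratio of *psmb9a* to *psmb6* could not be formed in each lane alone, since *psmb9a* was at 0 there in at least 1 pool. A pseudocount of 0.1 FPKM took the difference in the *psmb8a* to *psmb5* ratio from 0.87 to 0.28. Depth limits the 5 beta genes of the immunoproteasome and the thymus form within the name rule, which had at most 32 counts in any library.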

Other observations

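Upstream of the proteasome, the genes that make and load ubiquitin were more often higher than lower. Of 30 genes tested, 25 had a log2 fold change above 0, as did 48.2% of all genes. Without overlap 14 were higher and 1 lower, against 16.1% and 13.2% of all genes. At an adjusted p of 0.05 edgeR called 4 as higher (13.3%, against 3.82% of all genes) and 0 as lower (against 2.17%). At an unadjusted p of 0.05, 13 were higher and 0 lower, against 12.8% and 10.5% of all genes. The median log2 fold change was 0.20. Among the genes that encode ubiquitin itself, *ubb*, *ubc* and *rps27a* had log2 fold changes of −0.09, 0.04 and −0.03, none past the test (edgeR adjusted p = 0.790, 0.874 and 0.920). The 4 genes called were *ube2s* and *ube2c*, the conjugating enzymes of the anaphase-promoting complex, *ube2t*, which works in DNA crosslink repair, and *uba2*, of the SUMO-activating enzyme. *ube2s* stood at 67.1, 74.4 and 72.5 CPM in the mutant pools and at 37.2, 37.0 and 35.8 CPM in the wild-type pools, far apart (log2 fold change 0.96, edgeR adjusted p = 0.00178). *ube2c*, *ube2t* and *uba2* had log2 fold changes of 0.99, 1.28 and 0.61 (edgeR adjusted p = 0.00476, 0.0374 and 0.00868). *uba1*, the main ubiquitin-activating enzyme, stood at 369, 360 and 375 CPM against 298, 281 and 285 CPM, without overlap and just outside the threshold (log2 fold change 0.35, edgeR adjusted p = 0.0506).

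The next list held 18 genes for p97, the ATPase that pulls ubiquitin-tagged proteins out of complexes and membranes, and its cofactors. At an adjusted p of 0.05 edgeR called 2 as higher (11.1%, against 3.82% of all genes) and 1 as lower (against 2.17% of all genes). *vcp*, the p97 gene, stood at 411, 381 and 442 CPM in the mutant and at 319, 277 and 283 CPM in the wild type (log2 fold change 0.49, edgeR adjusted p = 0.0362). Its mutant pools were in the same order as the proteasome subunits, with pool 3 the highest and pool 2 the lowest. The cofactor genes *nsfl1c* and *ubxn6* changed in opposite directions (log2 fold change 0.53 and −0.45, edgeR adjusted p = 0.0285 and 0.0287). Among the membrane channel and ligase genes of the endoplasmic reticulum route, *derl1*, *sel1l* and *syvn1* had log2 fold changes of 0.08, 0.15 and 0.09 (edgeR adjusted p = 0.672, 0.352 and 0.567). Those of *derl2*, *derl3* and *amfrb* were 0.27, −0.10 and −0.48 (edgeR adjusted p = 0.206, 0.755 and 0.295). None passed the test, and *sel1l* and *derl2* were higher without overlap, a pattern that 16.1% of all genes showed.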
